A study of Mus musculus with 4 samples.

Results

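The chemokine ligands described here were 10 genes chosen by name, Ccl2, Ccl3, Ccl4, Ccl5, Ccl6, Ccl9, Cxcl2, Cxcl10, Cxcl13 and Cxcl16, of 31053 genes counted in single bone marrow cells. Red cell-depleted marrow from the femur and tibia of mice aged 12 months on a C57/B6 background was run on the 10x Genomics 3′ v3 platform, with 1 library per genotype. DKO lacked mDia1 and miR-146a and kept IL-6 (mDia1-/-, miR146a-/-, IL6+/+). TKO lacked IL-6 as well (IL6-/-, mDia1-/-, miR146a-/-). IL-6 KO lacked IL-6 alone (IL6-/-, mDia1+/+, miR146a+/+), and TWT carried the intact alleles of all 3 genes. The alleles were carried by the whole animal, so marrow cells and their surroundings shared each deletion, and how many mice gave each library was not stated. The DKO mouse is a model of myelodysplastic syndrome, a clonal disorder of blood formation that can progress to leukemia, and TKO asks how that model behaves without IL-6.

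Chemokines are small secreted proteins that bind G protein-coupled receptors on leukocytes and direct where those cells move. They are grouped by the spacing of their first cysteines into the CC family (Ccl genes), whose members mostly act on monocytes, T cells and NK cells, and the CXC family (Cxcl genes), whose members act on neutrophils or on lymphocytes. In marrow they help to set when mature leukocytes leave and where lymphocytes settle, and many of them are switched on by NF-kB or by interferon.

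Levels are unique molecular identifiers (UMIs, counted RNA molecules) of a gene scaled to the total UMIs of the same cells (CPM), beside the share of cells with at least 1 UMI of the gene. With 1 library per genotype there was no spread between animals and no difference could be tested, so the 95% intervals (exact Poisson for levels, exact Clopper-Pearson for shares) cover counting error only. A difference was called higher or lower when the CPM were at least 2-fold apart and the 2 libraries together held at least 50 UMIs. Differences on the log2 scale were taken after adding 1 CPM to each level, which understates the change of low genes. Comparisons that use the same DKO or TWT library share its error.

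The libraries held 9627, 7560, 7476 and 6794 cells (DKO, TKO, IL-6 KO and TWT) after filtering, of 36942 barcodes in all. Median depth was 7053 UMIs per cell in DKO and between 4585.5 and 4795 in the other libraries, so shares of cells are also given after thinning every cell to 2000 UMIs. Any 2 libraries shared 14 to 30 cell barcodes. Diaph1, which encodes mDia1, stood at 11.4 and 12.4 CPM in DKO and TKO, against 178 and 163 CPM in IL-6 KO and TWT. Il6 tags stood at 0.235 CPM in DKO, 8.60 and 9.89 CPM in the libraries labelled TKO and IL-6 KO, and 0.807 CPM in TWT. A 3′ tag can lie outside the deleted part, so Il6 checks neither label, and TKO and IL-6 KO below mean the libraries so labelled. miR-146a was not measured. Xist, expressed in females, stood at 800 CPM in IL-6 KO and at most 0.109 CPM elsewhere, so in comparisons with it sex and genotype cannot be told apart. Between DKO and TWT the median of 12537 genes lay at -0.12 on the log2 scale.

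Cells were placed by fixed markers into 21 classes, named here with "-like". The mixture of classes differed between libraries, which bears on every level over all cells. Monocyte-like cells made up 21.6% of cells in DKO, against 8.60%, 7.73% and 8.79% in TKO, IL-6 KO and TWT. Mature neutrophil-like cells made up 8.02% in DKO, against 25.4%, 29.3% and 26.5%. CD8 T cell-like cells made up 7.49%, against 1.1%, 1.44% and 1.90%, and non-classical monocyte-like cells 15%, against 1.35%, 0.736% and 0.486%. B cell-like cells, which should lack most of these ligands, served as the measure of background from free RNA, and their median depth was 2691.5, 2452, 2785 and 2501 UMIs. The part of the DKO cells in a class often sat in other clusters than the cells of the other 3 libraries. DKO monocyte-like cells fell mostly in cluster 5 (77.4%) and in cluster 29 (12.2%), which was led by Ctsk, C1qb and C1qa and was left unnamed. Monocyte-like cells of the other libraries fell mostly in cluster 8 (63.8% to 67.8%). Values for cells whose class and cluster carried the same name, which leaves out cluster 29, are therefore given beside the monocyte-like calls.

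Over all cells the summed level of the 10 members was 1355 CPM in DKO, 599 CPM in TKO, 947 CPM in IL-6 KO and 738 CPM in TWT. DKO lay above the range of the other 3 libraries for 6 members and inside it for Ccl3, Ccl6, Cxcl2 and Cxcl10. Without thinning, and with DKO the deeper library, at least 1 UMI of a member was found in 74.4% of DKO cells, against 44.8% of TKO, 54.1% of IL-6 KO and 49.9% of TWT cells, and 3 or more members were found in 16.5%, against 2.84%, 3.34% and 3.44%. Against TWT, 5 of the 10 members were higher in DKO (Ccl2, Ccl5, Ccl9, Cxcl13 and Cxcl16) and 0 were lower. Of 12537 genes tested the same way, 6.6% were higher and 13% lower. Against TKO, 7 of 10 were higher in DKO, with Ccl4 and Cxcl2 in addition, and 0 were lower, where 7.4% of 12466 genes were higher and 11.5% lower. The 2 comparisons share the DKO library. In both, Cxcl13 passed the UMI minimum through DKO alone and had to differ. Against TWT, 0 of 9 tested members were higher in TKO and Cxcl2 was lower (0.483% of genes were higher and 2.36% lower). In IL-6 KO, 0 of 9 were higher and Cxcl16 was lower (1.01% higher and 1.51% lower). With no test there is no p-value behind these counts. The median difference over the 10 members was 0.91 between DKO and TWT and 1.31 between DKO and TKO, against -0.12 and -0.10 over all genes tested.

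**Figure D1:**
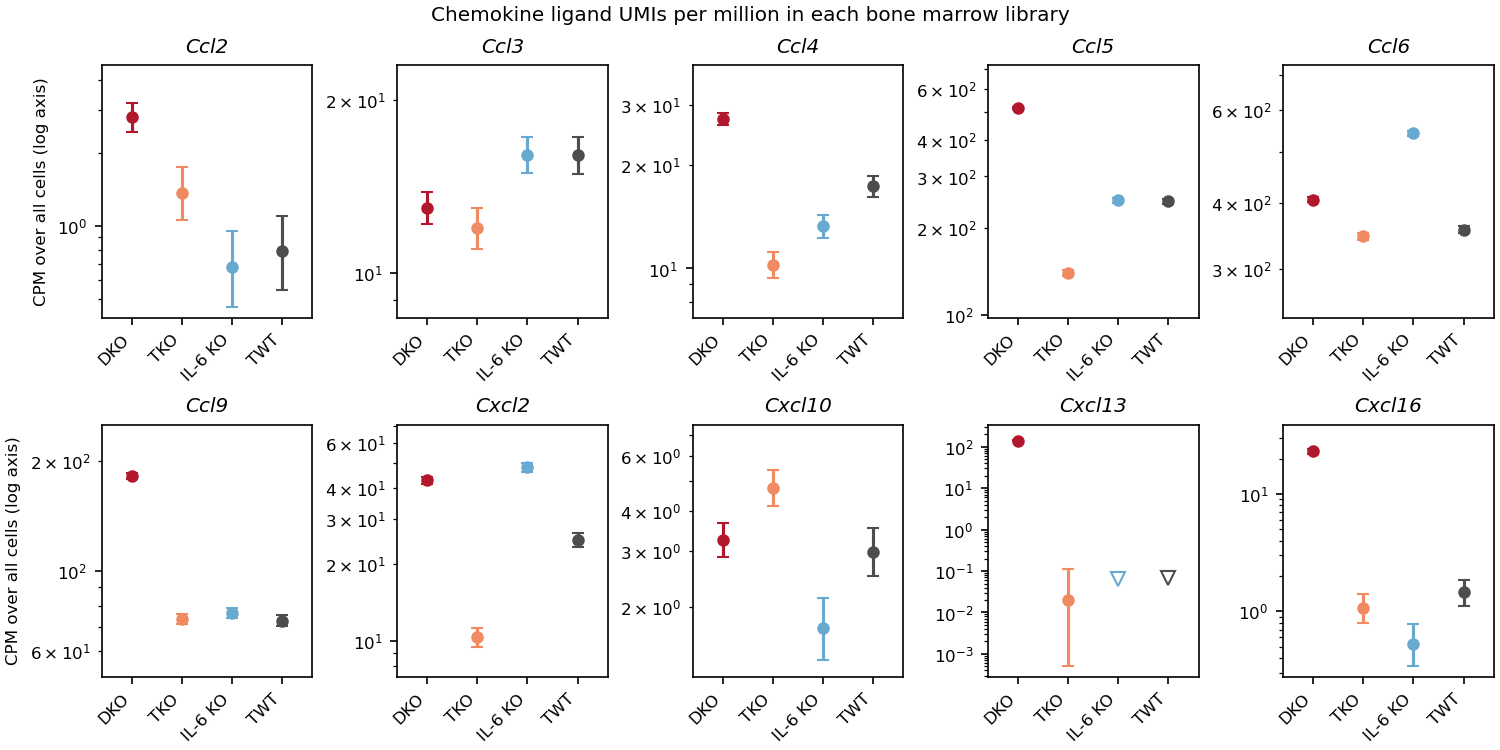
Level of each of the 10 chemokine ligands over all filtered cells (CPM, log axis), 1 point per library, with exact Poisson 95% intervals that cover counting error only; open triangles mark the floor of 3 UMIs where a library held 0. Cxcl13 stands at 139 CPM in DKO and at or near 0 elsewhere, and Cxcl16 at 23.2 CPM in DKO against at most 1.46 CPM in the other 3 libraries, while the 4 points of Ccl3 lie close together.

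The genes lie in a few blocks of the mouse genome (GRCm38, GENCODE M21, all protein-coding). The 7 members Ccl2 to Ccl9 and Cxcl16 are on chromosome 11, and Ccl5, Ccl9, Ccl6, Ccl3 and Ccl4 lie within 138.906 kb of each other. The 3 members Cxcl2, Cxcl10 and Cxcl13 are on chromosome 5. Ccl2, Ccl6, Cxcl10 and Cxcl16 each overlap a gene on the opposite strand (Gm17268, E230016K23Rik, Art3 and Zmynd15), and no member overlaps a gene on its own strand.

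Ccl2 (chr11:82035571-82037453, + strand) draws Ccr2-bearing monocytes out of marrow and into tissue. It was scarce in every library, at 2.81 CPM in DKO (215 UMIs), 1.37 CPM in TKO (67 UMIs), 0.676 CPM in IL-6 KO (32 UMIs) and 0.787 CPM in TWT (34 UMIs). The DKO level was the highest, 3.57-fold over TWT (interval 2.48 to 5.29) and 2.05-fold over TKO, and the intervals of IL-6 KO and TWT overlapped. Monocyte-like cells held 52.1%, 91.0%, 81.2% and 61.8% of the Ccl2 UMIs of DKO, TKO, IL-6 KO and TWT. In that class the order was different: 5.51 CPM in DKO, 10.8 CPM in TKO, 5.46 CPM in IL-6 KO and 4.20 CPM in TWT. Within monocyte-like cells Ccl2 was higher in TKO than in TWT (log2 difference 1.18, where 0.552% of 8877 genes were higher), and DKO and TWT were less than 2-fold apart. B cell-like cells held 0, 0, 1 and 1 UMI. In DKO 1 ungated cell carried 59 UMIs, 27.4% of the library's Ccl2. Without the macrophage-like, non-classical monocyte-like and ungated cells the difference between DKO and TWT was 0.82 and still called, while the call against TKO was lost.

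Ccl3 (chr11:83647844-83649355, - strand) and Ccl4 (chr11:83662584-83664683, + strand) are neighbouring genes for inflammatory chemokines made by activated lymphocytes, basophils and mast cells, among other cells. Ccl3 was not called in any comparison over all cells, at 13, 12, 16 and 16 CPM in DKO, TKO, IL-6 KO and TWT. The classes that held it differed. Basophil and mast cell-like cells held 68.2%, 68.6% and 57.0% of the Ccl3 UMIs of TKO, IL-6 KO and TWT, at 892, 1221 and 1144 CPM, with a Ccl3 UMI in 87.0% to 90.8% of these cells. The DKO library held 1 basophil and mast cell-like cell, against 83, 92 and 76. CD8 T cell-like cells held 40.4% of DKO's Ccl3. Macrophage-like cells of DKO held 9.65%, at 123 CPM (96 UMIs), and the unnamed cluster 14, where 92.8% of them lay, held 17.3%.

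In CD8 T cell-like cells Ccl3 stood at 123 CPM in DKO (402 UMIs), 21.9 CPM in TKO (9 UMIs), 1.95 CPM in IL-6 KO (1 UMI) and 9.64 CPM in TWT (6 UMIs). DKO was higher than TWT (log2 difference 3.54) and higher than TKO (2.43), and the UMI minimum was reached mainly through DKO. The share of cells with a UMI was 8.74%, 7.23%, 0.926% and 2.33%, and 6.63%, 6.25%, 0.962% and 1.57% after thinning, against 0.209% or less in B cell-like cells. The share in DKO was thus close to that in TKO, and the larger level came with more UMIs per positive cell. A single DKO cell carried 136 Ccl3 UMIs, 13.7% of the library's total. CD8 T cell-like cells fell mostly in cluster 11 in all 4 libraries (94.9%, 68.7%, 68.5% and 72.9%).

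Ccl4 stood at 27.3 CPM in DKO, 10.3 CPM in TKO, 13.3 CPM in IL-6 KO and 17.4 CPM in TWT. Over all cells the DKO level was 2.66-fold over TKO, a call, and 1.57-fold over TWT, which was not. Cells at or above 10 UMIs held 43.9% to 57.4% of the UMIs, and in TWT 1 cell alone carried 175, or 23.3%. Macrophage-like cells of DKO held 12.4% of DKO's Ccl4, at 334 CPM (260 UMIs), and the unnamed cluster 14 held 21.7%. In CD8 T cell-like cells Ccl4 stood at 311 CPM in DKO (1019 UMIs), against 75.4 CPM in TKO, 46.8 CPM in IL-6 KO and 27.3 CPM in TWT. DKO was higher than TWT by 3.46 and higher than TKO by 2.03 on the log2 scale. The thinned share of positive CD8 T cell-like cells was 17.1%, 13.8%, 7.69% and 2.36%, against 0.377% or less in B cell-like cells. Other T cell-like cells, which carried T cell markers without CD4 or CD8 calls, gave 238, 84.2, 38.6 and 20.3 CPM, a difference of 3.49 between DKO and TWT. That call rested on the gate: 35.5% of those DKO cells lay in the CD8 cluster 11, and among cells whose class and cluster name matched too few UMIs were left for a call.

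The pair was found together in single cells. Of Ccl3-positive basophil and mast cell-like cells, 63.5%, 66.2% and 72.5% also held Ccl4 in TKO, IL-6 KO and TWT, where the levels of Ccl4 were 376, 469 and 736 CPM. Of 63 Ccl3-positive CD8 T cell-like cells in DKO, 79.4% also held Ccl4, against 22.6% of the rest. NK cell-like cells also carried both genes. Between the IL-6 KO and TWT libraries, with 138 and 73 such cells, Ccl3 was lower in IL-6 KO (11.2 against 282 CPM, log2 difference -4.54) and so was Ccl4 (87.7 against 780 CPM, -3.14). Single cells set the TWT levels: 1 cell carried 64 of the 81 Ccl3 UMIs and 1 cell 175 of the 224 Ccl4 UMIs. In cluster 31, an NK cell-like cluster, Ccl3 stood at 13.6 CPM in IL-6 KO and 44.7 CPM in TWT (8 and 14 UMIs), and Ccl4 at 46.0 and 147 CPM (27 and 46 UMIs). Of 2448 genes tested in that class 0.613% were lower. DKO and TKO held 41 and 40 NK cell-like cells, too few for a comparison, with Ccl4 at 289 and 673 CPM.

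Ccl5 (chr11:83525778-83530518, - strand) is the ligand stored by effector T cells and NK cells and acts on Ccr1 among other receptors. It stood at 516 CPM in DKO, 140 CPM in TKO, 248 CPM in IL-6 KO and 247 CPM in TWT. DKO was the highest library, 2.09-fold over TWT (interval 2.05 to 2.14) and 3.68-fold over TKO, and IL-6 KO and TWT could not be separated. Cells with 10 or more Ccl5 UMIs held 95.9% to 97.2% of the gene's UMIs in each library. They were mainly lymphocytes: CD8 T cell-like cells held 72.2% of DKO's Ccl5, against 40.1%, 25.8% and 40.1% in TKO, IL-6 KO and TWT, and NK cell-like cells held 5.2%, against 23.1%, 40.0% and 23.8%.

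Within those classes the levels were close. CD8 T cell-like cells stood at 8686, 6663, 5908 and 6870 CPM in DKO, TKO, IL-6 KO and TWT, with Ccl5 in 96.8%, 85.5%, 74.1% and 82.2% of cells. NK cell-like cells stood at 11417, 8040, 8772 and 8843 CPM. The call over all cells was thus not met inside the main source, and it was lost when genes above 1% of a library's UMIs were left out of the scaling (0.92 on the log2 scale). When the 7 classes that could be compared were weighted as in TWT, the DKO level fell to 1.33-fold over TWT, against 2.59-fold at DKO's own mixture of them.

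Ccl5 was also found at a low level outside lymphocytes. Monocyte-like cells stood at 99.9 CPM in DKO, against 30.5, 29.8 and 27.8 CPM in TKO, IL-6 KO and TWT. This was a call against TWT (1.81) and TKO (1.68), and for cells with matching class and cluster it was 1.25 and 2.30. With clusters in place of gates it was 1.23 against TWT and 0.06, no call, against TKO. Few cells carried the level in DKO: cluster 5, with 77.4% of the class, stood at 11.8 CPM, against 9.57, 22.0 and 5.17 CPM in cluster 8 of TKO, IL-6 KO and TWT, while the 56 DKO cells of the unnamed cluster 46 stood at 2261 CPM. B cell-like cells of DKO themselves held 35.2 CPM with a UMI in 8.79% of cells, against 0.479% to 1.69% elsewhere, and the thinned share in DKO was 6.37% in B cell-like and 5.07% in monocyte-like cells. The thinned monocyte-like share thus lay below the B cell-like share, and whether either came from free RNA was not tested. Plasmacytoid dendritic cell-like cells stood at 140 CPM in TKO and 154 CPM in IL-6 KO, against 42.0 CPM in TWT, both calls (1.71 and 1.85, with 1.3% and 1.61% of genes higher). These calls rest on few cells: 1 TKO cell carried 117 of 119 UMIs and 1 IL-6 KO cell 52 of 141. The share of cells with a UMI was 1.46% in TKO and 6.43% in IL-6 KO, against 4.69% in TWT, so in TKO the share was lower where the level was higher.

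Ccl6 (chr11:83587882-83593087, - strand) and Ccl9 (chr11:83572919-83578636, - strand) are rodent ligands of Ccr1 made by myeloid cells. Ccl6 stood at 406, 346, 542 and 355 CPM in DKO, TKO, IL-6 KO and TWT, with no call in any comparison over all cells. The cells that carried it differed. Mature neutrophil-like cells held 16.1% of Ccl6 UMIs in DKO, against 66.5%, 68.4% and 64.1%, and monocyte-like cells held 51.3%, against 20.6%, 18.8% and 23.1%. Levels within both classes were less than 2-fold apart from TWT in every library: 1306, 1891, 2602 and 1809 CPM in mature neutrophil-like cells, and 784, 617, 1013 and 709 CPM in monocyte-like cells. Immature neutrophil-like cells gave a call, at 84.7 CPM in DKO against 30.1 CPM in TKO and 34.1 CPM in TWT. It was lost against TWT when class and cluster had to match (0.35 on the log2 scale).

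Ccl9 stood at 182 CPM in DKO and at 73.7, 76.4 and 72.8 CPM in TKO, IL-6 KO and TWT. DKO was 2.50-fold over TWT (interval 2.41 to 2.60) and 2.47-fold over TKO, and the intervals of TKO, IL-6 KO and TWT overlapped. Monocyte-like cells were the main source in all 4 libraries, with 68.2% to 74.7% of the UMIs. Inside them the level was nearly the same: 512 CPM in DKO, 465 CPM in TKO, 518 CPM in IL-6 KO and 468 CPM in TWT, with a UMI in 91.8%, 85.2%, 86.7% and 88.9% of cells. At the class mixture of TWT the DKO level was 1.31-fold over TWT, against 2.46-fold at its own. Basophil and mast cell-like cells were the richest class, at 1445, 1513 and 1498 CPM in TKO, IL-6 KO and TWT.

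Mature neutrophil-like cells were an exception for Ccl9. They stood at 61.6 CPM in DKO, 9.61 CPM in TKO, 18.8 CPM in IL-6 KO and 10.7 CPM in TWT. DKO was higher than TWT (2.42) and TKO (2.56), and 2.28 and 2.29 with matching class and cluster. The thinned share of cells was 7.52%, 1.24%, 1.56% and 1.27%, against 3.43%, 0.194%, 1.0% and 0.503% in B cell-like cells. The DKO cells of this class lay in clusters 13 (57.8%) and 21 (22.0%), and those of the other libraries mostly in clusters 0 and 2. Their median depth was 4800 UMIs in DKO and 2724 to 2806 elsewhere.

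**Figure D2:**
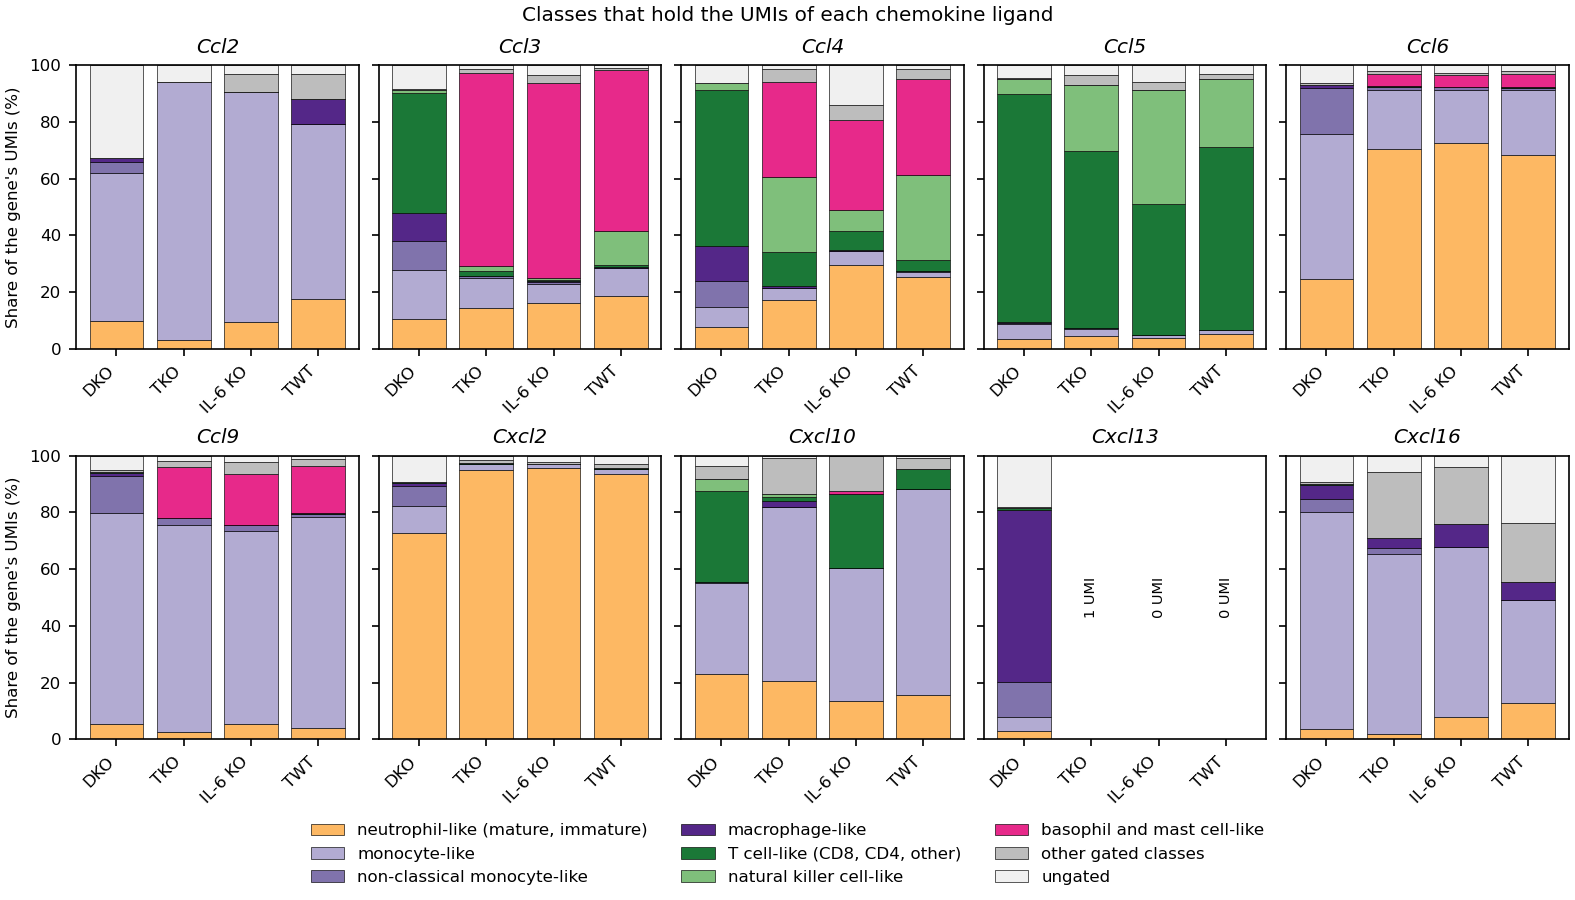
Share of each ligand's UMIs (percent) held by each marker-gated class, as stacked bars, 1 bar per library. Monocyte-like cells hold 74.7% of Ccl9 in DKO and 74.5% in TWT, whereas the Ccl6 held by mature neutrophil-like cells is 16.1% in DKO against 64.1% in TWT, and the Ccl3 held by basophil and mast cell-like cells in the other 3 libraries has no counterpart in DKO.

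Of the CXC members, Cxcl2, Cxcl10 and Cxcl13 lie on chromosome 5 and differed between libraries in different cell classes. Their upstream sequences are shown as context for those differences, 5′ to 3′ on the coding strand, from RefSeq windows on build GRCm38.p6. They are chr5:90903649-90903870 (+ strand, 222 bases) for Cxcl2, chr5:92348890-92349139 (- strand, 250 bases) for Cxcl10 and chr5:95956689-95956938 (+ strand, 250 bases) for Cxcl13. Capitals mark matches to the NF-kB consensus, to the interferon response element (GAAA repeated after a gap of 2 bases) or to TGANTCA (an AP-1 element), each searched on both strands.
Cxcl2: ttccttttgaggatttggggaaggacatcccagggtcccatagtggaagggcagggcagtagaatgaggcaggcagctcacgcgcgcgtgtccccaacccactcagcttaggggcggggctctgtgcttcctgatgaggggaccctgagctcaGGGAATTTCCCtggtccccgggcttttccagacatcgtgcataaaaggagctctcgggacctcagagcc
Cxcl10: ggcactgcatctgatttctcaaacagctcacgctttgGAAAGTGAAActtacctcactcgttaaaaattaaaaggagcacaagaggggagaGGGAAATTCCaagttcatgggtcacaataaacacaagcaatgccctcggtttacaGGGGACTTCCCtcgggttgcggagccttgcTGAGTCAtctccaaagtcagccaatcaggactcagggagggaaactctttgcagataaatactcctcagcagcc
Cxcl13: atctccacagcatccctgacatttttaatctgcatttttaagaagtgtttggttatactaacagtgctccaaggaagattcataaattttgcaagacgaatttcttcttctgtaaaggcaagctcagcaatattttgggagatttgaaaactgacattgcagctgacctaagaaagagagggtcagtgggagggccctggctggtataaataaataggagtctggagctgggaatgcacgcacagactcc
In these windows Cxcl2 matched NF-kB alone, Cxcl10 matched all 3 motifs and Cxcl13 none of them. RefSeq promoters were found for 6 of the 10 members (Ccl3, Ccl6, Ccl9, Cxcl2, Cxcl10 and Cxcl13), and not for Ccl2, Ccl4, Ccl5 and Cxcl16. In the 250 bases before the start NF-kB was matched in 3 of the 6 (Ccl9, Cxcl2 and Cxcl10), against 7.25% of 32851 promoters. The interferon element was matched in Cxcl10 alone of the 6, against 2.98%, and the AP-1 element in Ccl9 and Cxcl10, against 6.75%. Some NF-kB matches overlap each other, and a match is a description of the letters only.

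Cxcl2 is made by myeloid cells and draws neutrophils through Cxcr2. Its gene lies at chr5:90903871-90905938 (+ strand). Over all cells it stood at 42.6 CPM in DKO, 10.3 CPM in TKO, 48.0 CPM in IL-6 KO and 24.9 CPM in TWT. The library labelled TKO was the lowest, with a fold of 0.415 against TWT (interval 0.372 to 0.462), and DKO was 4.13-fold over TKO. DKO and IL-6 KO were 1.71- and 1.93-fold over TWT, below the threshold.

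Mature neutrophil-like cells held 61.5% of Cxcl2 in DKO and 88.6% to 91.1% elsewhere, and within them the order of the libraries changed. The level was 526 CPM in DKO (2008 UMIs), 77.4 CPM in TKO (459 UMIs), 306 CPM in IL-6 KO (2068 UMIs) and 175 CPM in TWT (953 UMIs). All 4 levels lay outside each other's counting intervals. DKO was higher than TWT (1.58) and than TKO (2.75), and TKO was lower than TWT (-1.17). The share of cells with a UMI was 38.3%, 10.4%, 27.3% and 19.4%, and 29.0%, 8.12%, 23.5% and 15.6% after thinning, in the same order as the levels. B cell-like cells gave 0.239% to 0.680%.

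Cxcl2 was among the 10 leading genes of cluster 13, at 537 CPM in DKO. The members had been left out of the genes used to draw the clusters. In clusters 0 and 2, which hold the mature neutrophil-like cells of the other libraries, IL-6 KO stood at 588 and 229 CPM, TKO at 134 and 52.0 CPM and TWT at 385 and 144 CPM. In cluster 9, another mature neutrophil-like cluster, IL-6 KO stood at 42.5 CPM, TKO at 15.6 CPM and TWT at 51.4 CPM, so TKO was the lowest in each while IL-6 KO and TWT changed places. Mature neutrophil-like cells were fewer in DKO, and at the class mixture of TWT the DKO level was 3.04-fold over TWT, against 1.42-fold at its own. Monocyte-like cells held far less, at 15.3 CPM in DKO, 1.95 CPM in TKO, 5.46 CPM in IL-6 KO and 3.8 CPM in TWT. DKO was higher there than TWT (1.77, and 1.47 with matching class and cluster). Immature neutrophil-like cells stood at 12.0, 0.896, 5.36 and 2.99 CPM, higher in DKO than in TWT (1.70) and lower in TKO (-1.07).

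In mature neutrophil-like cells 3 of 7 tested members were higher in DKO than in TWT (Ccl9, Cxcl2 and Cxcl13) and 0 were lower, where 5.82% of 6424 genes were higher and 8.33% lower. Immature neutrophil-like cells gave 6 of 9 higher and 0 lower (6.09% and 6.44% of genes). The Ccl6 call among these was lost when class and cluster had to match. In cluster 6, with 50.9% of those DKO cells, Ccl5 and Ccl9 stood at 14.8 and 4.78 CPM. In the DKO cells of cluster 1, a B cell-like cluster, they stood higher, at 29.2 and 14.2 CPM. Ccl6 and Cxcl2 stood higher in cluster 6 (47.0 and 9.56 CPM, against 17.8 and 1.42 CPM). Monocyte-like cells gave 5 higher and 1 lower of 10 (5.31% and 14.3%), and CD8 T cell-like cells 4 higher and 0 lower of 6 (7.61% and 6.69%). Other T cell-like and B cell-like cells gave 1 higher and 0 lower of 2 each, Ccl4 in the first and Ccl5 in the second (5.39% and 6.44% of genes in other T cell-like, 2.32% and 18.5% in B cell-like cells). Over the 7 mature neutrophil-like members tested the median difference was -0.36, and Ccl3, Ccl4, Ccl5 and Ccl6 lay below TWT without a call. A member that passed the UMI minimum through DKO alone had to differ, as Cxcl13 did in each of the neutrophil-like, monocyte-like and CD8 T cell-like classes. In CD8 T cell-like cells Cxcl10 and Ccl3 also reached the minimum mainly through DKO.

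Between DKO and TKO, 4 of 7 members were higher and 0 lower in mature neutrophil-like cells (6.5% and 9.06% of genes) and 8 of 9 higher and 0 lower in immature neutrophil-like cells (5.82% and 4.46%). Monocyte-like cells gave 4 higher and 1 lower of 10 (5.89% and 13.2%), and CD8 T cell-like cells 5 higher and 0 lower of 6 (5.54% and 6.91%). Non-classical monocyte-like cells, which TWT lacked in number, gave 4 higher and 0 lower of 8 (10.7% and 6.29%). Each of these counts includes Cxcl13, of which TKO held 0 UMIs in these classes. Cxcl13 passed the UMI minimum through DKO alone and had to differ. In CD8 T cell-like cells Ccl3 and Cxcl10 also reached the minimum mainly through DKO. Granulocyte-monocyte progenitor-like cells gave 1 higher, Ccl6, and 1 lower, Ccl5, of 3 (1.29% and 7.51%), other T cell-like cells 1 higher of 2, Ccl4 (4.01% and 3.84%), and B cell-like cells 1 higher of 2 (3.03% and 20.2%). The lower Ccl5 rests on 5 positive TKO cells, 1 of them with 28 of 69 UMIs, while 9.66% of DKO and 2.66% of TKO cells were positive, and it turned to 0.74 with at least 200 genes as the only cell filter. The other T cell-like Ccl4 turned to -1.83 with clusters in place of gates and to -1.93 with matching class and cluster. The higher Ccl6 in CD8 T cell-like cells was also lost under both settings, with its sign reversed. Of the 30 class calls between DKO and TKO, 12 were lost under the first setting and 11 under the second.

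Between TKO and TWT, calls were fewer. Lower in TKO were 2 of 6 members in mature neutrophil-like cells, Cxcl2 and Ccl5 (0.596% of genes higher and 1.51% lower), and 3 of 6 in immature neutrophil-like cells, Ccl3, Ccl4 and Cxcl2 (0.499% and 0.935%), where 1 TWT cell carried 18 of 38 Ccl3 UMIs and 1 carried 17 of 48 Ccl4 UMIs. Monocyte-like cells gave 1 higher of 7, Ccl2 (0.552% each way). Plasmacytoid dendritic cell-like cells gave 1 higher of 1, Ccl5, nearly all from 1 TKO cell (1.3% and 0.672%), and B cell-like cells 1 lower of 2, Ccl5 (1.46% and 1.24%). With matching class and cluster 5 of these 8 calls were lost, all of them lower in TKO, and 1 lower call was left. Between IL-6 KO and TWT, Ccl3 and Ccl4 were lower in immature neutrophil-like cells, 2 of 6 (0.29% and 0.923%), and in NK cell-like cells, 2 of 3, mostly through 1 TWT cell for each gene (0.94% and 0.613%). The immature neutrophil-like calls rest on the same TWT values as above, and with matching class and cluster too few UMIs were left for a call, and the Ccl4 difference turned to 0.22. Cxcl10 was lower in monocyte-like cells, 1 of 5 (0.638% and 0.604%). Higher in IL-6 KO were Ccl9 in granulocyte-monocyte progenitor-like cells, 1 of 2 (0.524% and 0.554%), Ccl5 in plasmacytoid dendritic cell-like cells, 1 of 2 (1.61% and 0.544%), and Ccl6 in plasma cell-like cells, 1 of 1 (3.47% and 1.32%).

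Cxcl10 (chr5:92346638-92348889, - strand) is induced by interferon and draws Cxcr3-bearing T cells. It was rare, at 3.25 CPM in DKO (249 UMIs), 4.75 CPM in TKO (232 UMIs), 1.71 CPM in IL-6 KO (81 UMIs) and 2.99 CPM in TWT (129 UMIs), with no call over all cells. T cell-like cells held 32.1%, 1.29%, 25.9% and 6.98% of Cxcl10 UMIs in DKO, TKO, IL-6 KO and TWT. Neutrophil-like cells held 22.9%, 20.7%, 13.6% and 15.5%, and monocyte-like cells 32.1%, 61.2%, 46.9% and 72.9%. The 2 main classes of DKO, monocyte-like and CD8 T cell-like cells, moved in opposite directions there. Monocyte-like cells stood at 3.93 CPM in DKO (80 UMIs), 25.2 CPM in TKO (142 UMIs), 7.99 CPM in IL-6 KO (38 UMIs) and 18.8 CPM in TWT (94 UMIs). DKO was lower than TWT (-2.0) and than TKO (-2.41), also with matching class and cluster (-2.27 and -2.65). IL-6 KO was lower than TWT as well (-1.14).

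In CD8 T cell-like cells Cxcl10 stood at 21.3 CPM in DKO (70 UMIs), against 2.43, 1.95 and 4.82 CPM in TKO, IL-6 KO and TWT (1, 1 and 3 UMIs). DKO was higher than TWT (1.94) and TKO (2.70). Cxcl10 passed the UMI minimum there through DKO, with 70 UMIs against 3 in TWT and 1 in TKO. It could thus be compared in this class only because it was high in DKO. The share of positive CD8 T cell-like cells was only 2.08%, 1.2%, 0.926% and 0.775%, and that of monocyte-like cells 1.44%, 4.92%, 2.94% and 3.02%, against 0.209% or less in B cell-like cells. Few cells set these levels: 14 cells held 50% of DKO's UMIs, 6 those of TKO, and 4 each those of IL-6 KO and TWT. The fall in DKO monocyte-like cells was therefore read from the share as well as from the level, and the rise in CD8 T cell-like cells rests on about 2% of the class.

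**Figure D3:**
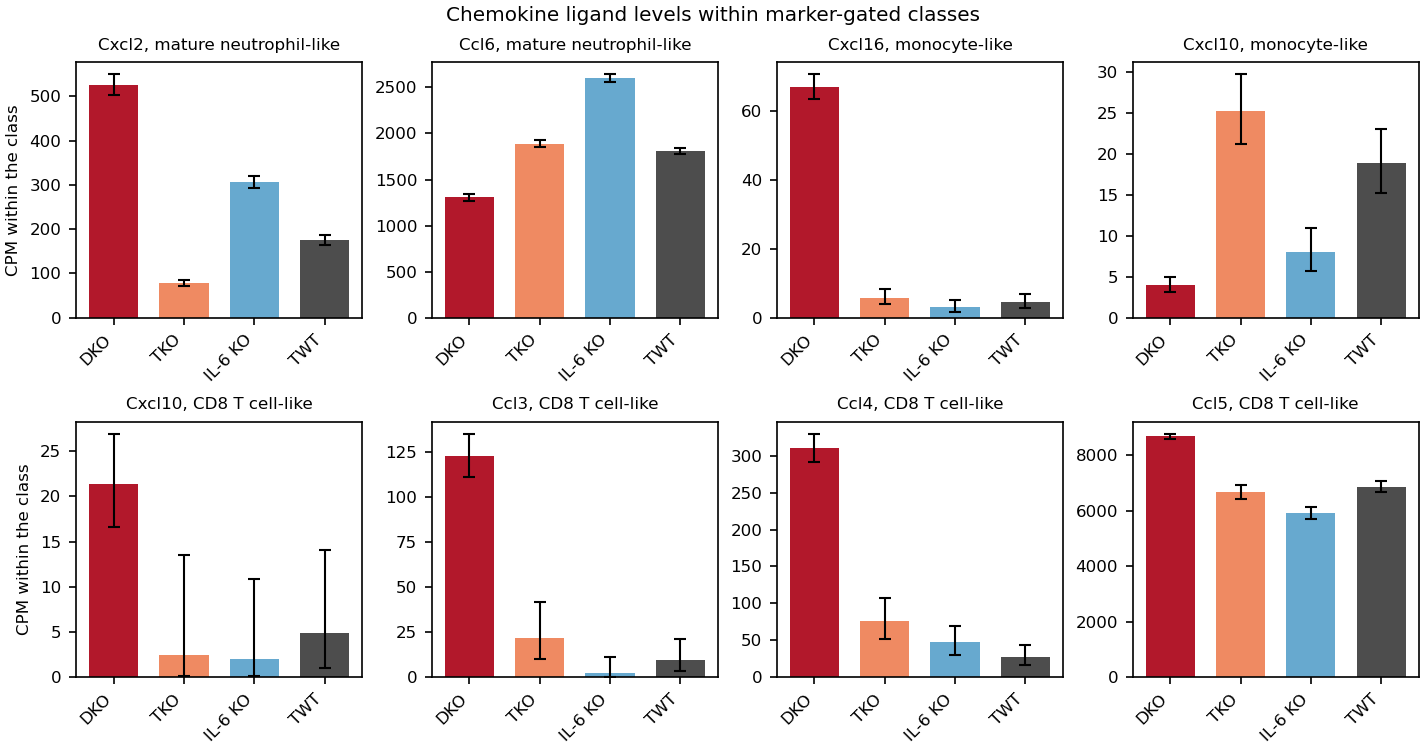
Levels (CPM, linear axis from 0) of selected ligands within 1 class, as bars for DKO, TKO, IL-6 KO and TWT from left to right, with exact Poisson 95% intervals that cover counting error only. Cxcl2 in mature neutrophil-like cells is 526 CPM in DKO and 77.4 CPM in TKO, Cxcl10 is low in DKO monocyte-like cells (3.93 CPM) and high in DKO CD8 T cell-like cells (21.3 CPM), and Ccl5 differs little between the CD8 T cell-like cells of the 4 libraries.

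Cxcl13 (chr5:95956951-95961068, + strand) draws Cxcr5-bearing B cells into lymphoid follicles. It was seen almost only in DKO, at 139 CPM (10668 UMIs, interval 137 to 142). TKO held 1 UMI, and IL-6 KO and TWT held 0, which allows up to 0.0634 and 0.0694 CPM by a floor of 3 UMIs. The DKO level was at least 2007-fold higher than TWT, and 6799.8-fold over the single TKO UMI, with a counting interval of 1220.2 to 268601. It was found in 640 DKO cells, of which 21 held 50% of the UMIs and 28 held 100 or more each, up to 419 in 1 cell.

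Macrophage-like cells, gated on complement C1q and other macrophage markers, held 60.6% of DKO's Cxcl13, at 8298 CPM (interval 8097 to 8503) in 77.6% of 125 cells. TKO, IL-6 KO and TWT held 15, 15 and 20 macrophage-like cells, with 1, 0 and 0 UMIs, too few for a comparison. The DKO cells also differed in several markers from the few macrophage-like cells of TWT. C1qa was found in 100% of them, Cd300e in 78.4% and Spn in 60.8%, while the resident macrophage markers Vcam1, Mrc1, Slc40a1 and Cd163 were found in 2.4%, 4.8%, 3.2% and 0.8%. In TWT the same markers were found in 85.0%, 80.0%, 85.0% and 35.0% of cells and Cd300e in 0. Of other macrophage markers, Cd5l, Spic, Timd4, Mertk and Axl were found in 16.8%, 30.4%, 1.6%, 8.8% and 72% of the DKO cells. In TWT they were found in 65%, 60%, 20%, 30% and 80%. Adgre1 and Cd68 were found in more of the DKO cells, 68% and 84%, against 55% and 65% in TWT. Other non-classical monocyte markers were split. Adgre4, Cx3cr1, Nr4a1 and Eno3 were found in 56%, 33.6%, 20.8% and 8% of the DKO cells, against 25%, 5%, 0 and 0 in TWT. Treml4 and Ace went the other way: Treml4 was found in 5.6% of the DKO cells, against 45% in TWT, and Ace in 0, against 5.0%. DKO macrophage-like cells had a median of 6136 UMIs, against 1177, 1131 and 1337.5, and 15.4% of the class lay near the gate's cut.

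By clusters, 531 DKO cells of cluster 14 held 95.3% of DKO's Cxcl13. That cluster was led by Cxcl13 itself, C1qc, Fabp4, C1qb and C1qa. Of its gated cells 65% were non-classical monocyte-like, and it was left unnamed. The members were left out of the genes used to draw the clusters, and Cxcl13 stood at 3564 CPM in cluster 14. Outside cluster 14 Cxcl13 was lower: 5.06 CPM in cluster 5, 5.11 CPM in cluster 13 and 18.2 CPM in cluster 11, against 12.9 CPM in B cell-like cells. Thinned shares were 1.85% in monocyte-like, 1.88% in mature neutrophil-like and 0.846% in immature neutrophil-like cells, against 1.47% in B cell-like cells. CD8 T cell-like cells lay above that, with 4.27%. The calls for Cxcl13 in neutrophil-like and monocyte-like cells of DKO thus came with shares near or below that of B cell-like cells. Their levels were 25.7 CPM in monocyte-like, 22.0 CPM in mature and 7.70 CPM in immature neutrophil-like cells. Free RNA was estimated at 2.49% of UMIs in DKO and 1.09% to 1.63% elsewhere, and whether it gave these calls was not tested.

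Cxcl16 (chr11:70453983-70459984, - strand) encodes a membrane-bound ligand that is shed to attract Cxcr6-bearing T cells and also takes up oxidised lipoprotein. It stood at 23.2 CPM in DKO (1777 UMIs), 1.07 CPM in TKO (52 UMIs), 0.528 CPM in IL-6 KO (25 UMIs) and 1.46 CPM in TWT (63 UMIs). DKO was 15.9-fold over TWT (interval 12.4 to 20.8) and 21.8-fold over TKO. The IL-6 KO level had a fold of 0.362 against TWT (interval 0.218 to 0.584), a call on few UMIs that was lost when the mean of each cell's CPM was used.

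Monocyte-like cells held 76.5% of DKO's Cxcl16, at 66.8 CPM, against 5.85 CPM in TKO, 3.15 CPM in IL-6 KO and 4.60 CPM in TWT. The share of cells was 24.2%, 3.08%, 1.90% and 2.51%, and 11%, 1.25%, 0.348% and 0.847% after thinning, with 0.239% or less in B cell-like cells. DKO was higher than TWT (3.6) and than TKO (3.31). Cluster 29 alone, 284 DKO cells of which Cxcl16 is a leading gene, held 51.9% of the library's UMIs at 371 CPM. With matching class and cluster, which leaves out cluster 29 and other cells, the difference was smaller and remained a call (2.35 against TWT and 2.72 against TKO). Cluster 5 of DKO stood at 25.6 CPM, against 4.32, 2.48 and 5.81 CPM in cluster 8 of TKO, IL-6 KO and TWT. Macrophage-like cells held 113, 92.3, 71.4 and 91.4 CPM, but from 88, 2, 2 and 4 UMIs.

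**Figure D4:**
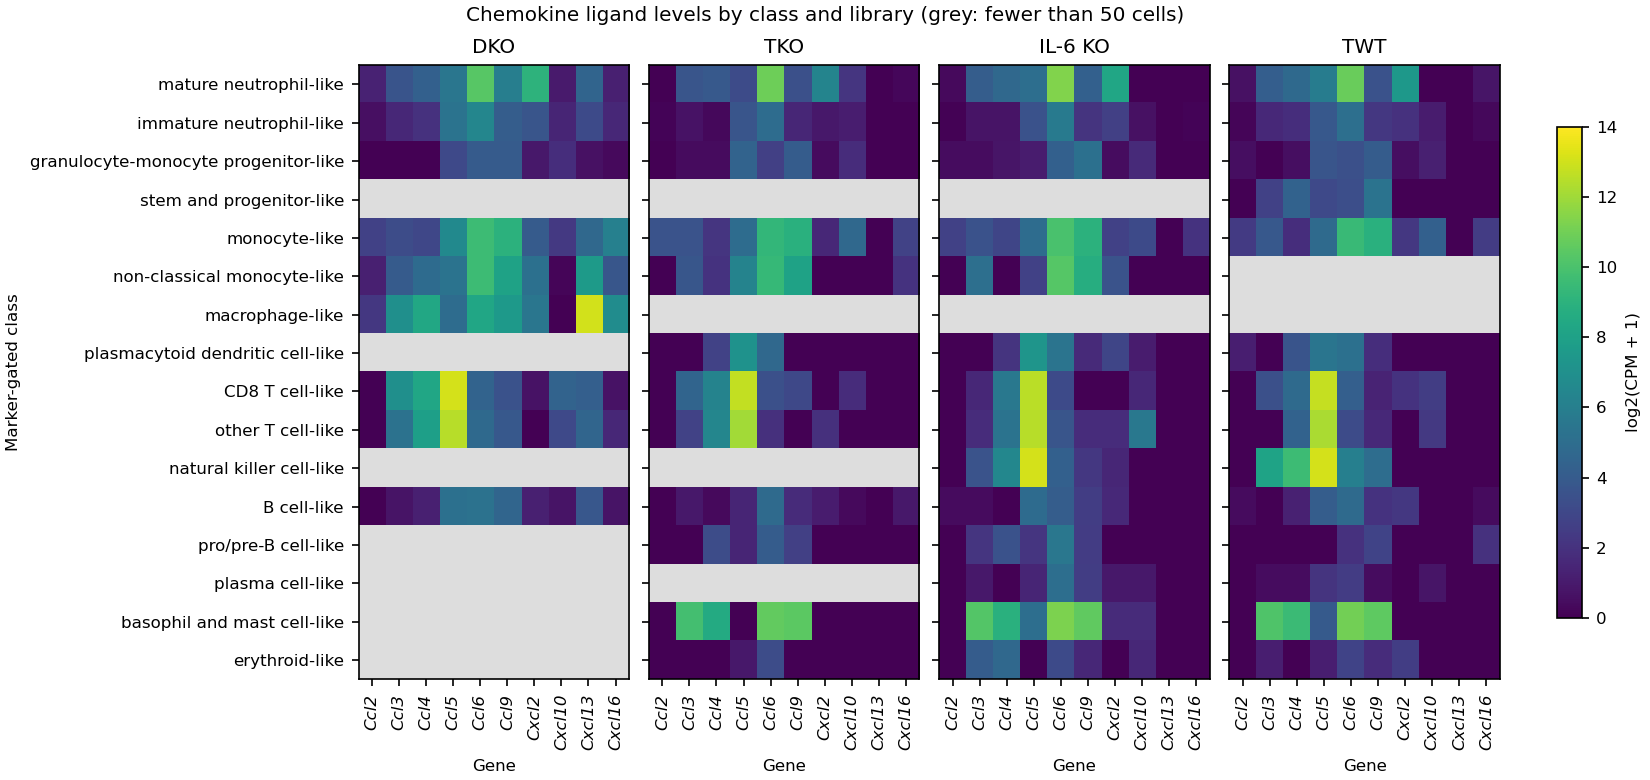
Level of each ligand as log2(CPM + 1) in each marker-gated class, 1 panel per library, with classes under 50 cells in grey. The basophil and mast cell-like row carries Ccl3, Ccl4, Ccl6 and Ccl9 in TKO, IL-6 KO and TWT and is grey in DKO, and the macrophage-like row, filled only in DKO, carries Cxcl13 at 8298 CPM.

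How far the class mixture moved a level over all cells was set out by weighting the 7 classes with at least 50 cells in both DKO and TWT, which hold 83.4% of DKO's UMIs. Over these classes Ccl5, Ccl9 and Ccl2 were 2.59-, 2.46- and 2.52-fold over TWT at DKO's own mixture, and 1.33-, 1.31- and 1.55-fold at that of TWT. Ccl4 was 3.38- and 2.15-fold, and Cxcl16 24.5- and 11.9-fold. Cxcl2 was 1.42- and 3.04-fold. Cxcl10 was 0.996- and 0.670-fold, Ccl3 1.90- and 1.17-fold, and Ccl6 0.923- and 0.903-fold. Cxcl13 stood at 14.7 and 12.8 CPM, against 0 in TWT, with most of its UMIs in classes left out here. At least 2-fold at the mixture of TWT were 4 members, Ccl4, Cxcl2, Cxcl13 and Cxcl16.

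**Figure D5:**
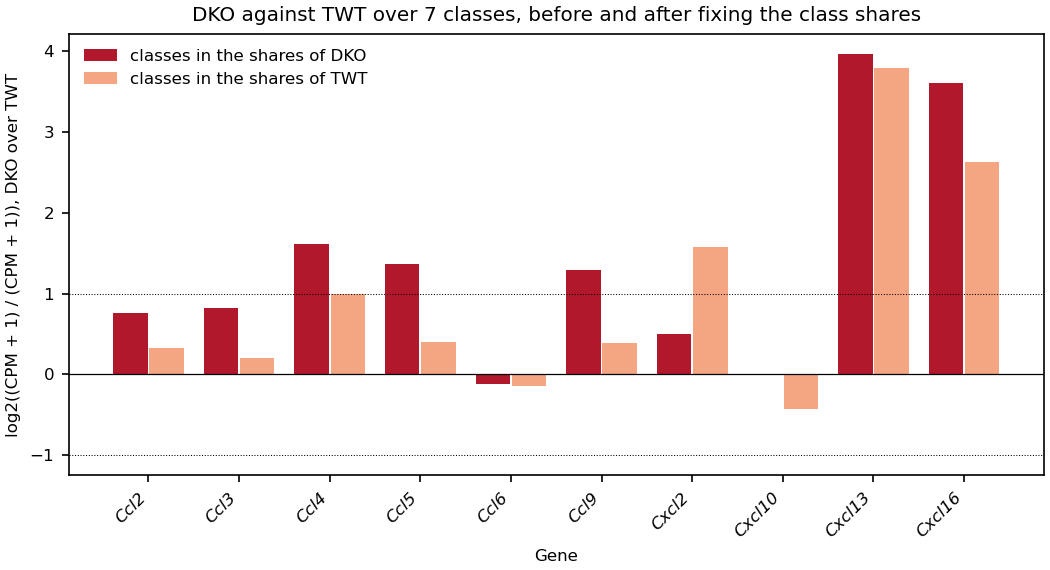
Log2 difference between DKO and TWT for each ligand over the 7 classes that both libraries hold, with DKO's own class shares and with the class shares of TWT. Ccl5 and Ccl9 move toward 0 with the shares of TWT (1.33- and 1.31-fold), Cxcl16 keeps 11.9-fold, and Cxcl2 moves up to 3.04-fold.

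Among receptors of these ligands, Cxcr3 and Cxcr6 were higher and Cxcr2 and Cxcr5 lower in DKO than in TWT over all cells. Cxcr3, the receptor of Cxcl10, stood at 15.9 CPM in DKO and 7.71 CPM in TWT (0.96), and Cxcr6, the receptor of Cxcl16, at 16 and 7.08 CPM (1.08), both mainly in CD8 T cell-like cells of DKO. Cxcr2, the receptor of Cxcl2, stood at 103 and 258 CPM (-1.31), and Cxcr5, the receptor of Cxcl13, at 2.02 and 8.38 CPM (-1.63). Cxcr2 is a marker of the mature neutrophil-like gate, and Cxcr5 was found mostly in B cell-like cells, 61.3% of its UMIs in DKO and 81.5% in TWT, and both classes were smaller in DKO. Ccr1 (102 and 123 CPM) and Ccr2 (331 and 221 CPM) were not called.

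Of 27 other chemokine ligands, 26 were measured and 10 had enough UMIs. Higher in DKO than in TWT were Ccl24 (3.41 and 0.231 CPM, log2 difference 1.84), Cxcl14 (10.8 and 3.66 CPM, 1.34), Ccl1 (0.705 and 0.0231 CPM, 0.74) and Cxcl9 (1.14 and 0.509 CPM, 0.50). Of these, Ccl24 and Ccl1 reached the UMI minimum mainly through DKO. Lower were Cxcl12, the niche factor that retains stem cells (0.522 and 25.6 CPM, -4.13), and the platelet chemokines Pf4 (8.70 and 37.7 CPM, -2.0) and Ppbp (0.496 and 8.70 CPM, -2.70). Few cells of the matching classes were captured: 0 stromal and endothelial-like cells in DKO and 4 in TWT, and 2 and 12 megakaryocyte-like cells. Cxcl12 was also a leading gene of the ungated cells.

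The genes most like each member were ranked by Pearson's r of log2(CPM + 1) over 49 library-by-class profiles, which share libraries and depth, among 11430 genes. For Cxcl13 they were Nr1h3 (r = 0.913), C1qc (0.910) and Adamdec1 (0.902), and for Cxcl16 Fabp7 (0.910), Ms4a7 (0.873) and C1qc (0.872). Only DKO profiles held Cxcl13, so its r rests on them, and C1q was a marker of the macrophage-like gate. For Cxcl2 they were Sfxn5 (0.869), Il1b (0.849) and Dusp1 (0.834). Ccl3 and Ccl4 were near each other (0.806), Ccl3 beside Chn2 (0.804) and Cd200r3 (0.767), and Ccl4 beside Cd200r4 (0.889) and Rgs1 (0.877). Ccl5 was closest to Gm2682 (0.941), Sh2d1a (0.940) and Xcl1 (0.939), Ccl6 to Slc2a6 (0.908), Nlrp3 (0.899) and Neat1 (0.889), and Ccl9 to Adora2b (0.874), Fzd4 (0.873) and Camk1 (0.832). Ccl2 was closest to Msr1 (0.860), Sh3pxd2b (0.856) and Cxcl9 (0.841). Cxcl10 had no close match, with Ttc39c (0.636), Ly6c2 (0.570) and Itga1 (0.568).

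Lists of genes that respond to the usual inducers of chemokines were read beside the members. In monocyte-like cells the interferon response list had 1 gene higher and 9 lower of 15 tested between DKO and TWT (median -1.27, against -0.27 over all genes). The NF-kB early response list had 7 higher and 0 lower of 16 (median 0.63). The list of genes induced by cell dissociation had 7 higher and 0 lower of 16 (median 0.68). Of all genes tested in that class 5.31% were higher and 14.3% lower. In CD8 T cell-like cells the interferon list had 9 higher and 0 lower of 13 (median 1.13, against 0.02 over all genes), the NF-kB list 4 higher and 1 lower of 13, and the dissociation list 1 and 1 of 11, where 7.61% of all genes were higher and 6.69% lower. In mature neutrophil-like cells the NF-kB list had 3 higher and 2 lower of 15 (median -0.45), the interferon list 1 and 4 of 12, and the dissociation list 1 and 2 of 14, where 5.82% of all genes were higher and 8.33% lower and their median was -0.12. In monocyte-like cells Cxcl10 and the interferon list both stood lower, and in CD8 T cell-like cells both stood higher. In mature neutrophil-like cells Cxcl10 held too few UMIs to be compared. Whether these moves are connected was not tested.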

How the data were processed

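The authors sequenced 1 library per genotype on the 10x Genomics 3′ v3 platform and deposited unnormalised UMI counts per gene and barcode, made with Cell Ranger 3.0.2 per the file headers on mm10; the processing notes also name Seurat 4. A barcode was kept as a cell if it held 500 to 4000 genes and no more than 15% of its UMIs were mitochondrial (31457 of 36942). Each cell was scored on 142 markers of 21 classes and gated when at least 3 markers of the class were detected and its score exceeded the next by 1.1 times; 6.20% stayed ungated. Cells under 1.2 times were counted as near the cut: 5.01% of mature neutrophil-like, 2.51% of monocyte-like, 0.865% of CD8 T cell-like and 15.4% of macrophage-like cells. Clusters (scanpy 1.11.5, leidenalg 0.10.2) served as a second assignment, so a difference from the study may come from rebuilt names. Doublets (1.62% to 2.24% by Scrublet) were kept.

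UMIs were summed per library and class (numpy 2.4.6, scipy 1.17.1, pandas 2.3.3). Classes under 50 cells in either library were not compared. Log2 differences used a pseudocount of 1 CPM, and a gene at 0 was set to a floor of 3 UMIs per library. Cells were thinned to 2000 UMIs, leaving out shallower cells. The text names the 10 members, the 3 genes most like each, receptors by textbook pairing (1 of them is not reported here), the other ligands at least 2-fold apart between DKO and TWT, and 3 gene lists by their counts. The members, lists and rules were chosen with earlier results of these data known. Alternatives were another scaling, UMI minimum, fold, pseudocount, cell filter, summary over cells and class assignment, removal of doublets, of dominant genes and of free RNA. Scripts were tested on simulated data. No normalised values were used.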

Additional observations from a re-analysis of the deposited data

Results flagged for a closer look

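Cxcl10 moved in opposite directions in 2 classes of DKO. On the log2 scale it differed from TWT by -2.0 in monocyte-like cells and 1.94 in CD8 T cell-like cells, and from TKO by -2.41 and 2.70. In CD8 T cell-like cells it passed the UMI minimum only because it was high in DKO. With 1 library per genotype the difference between the classes was not tested.

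Ccl5 did so as well. Between DKO and TKO it differed by 2.30 in mature neutrophil-like, 1.65 in immature neutrophil-like, 1.68 in monocyte-like and 3.75 in B cell-like cells, and by -1.37 in granulocyte-monocyte progenitor-like cells. That value rests on 5 positive TKO cells, 1 with 28 of 69 UMIs, and the share of positive cells was 9.66% in DKO and 2.66% in TKO. Between TKO and TWT it differed by -2.65 in mature neutrophil-like and -2.69 in B cell-like cells, and by 1.71 in plasmacytoid dendritic cell-like cells. In that class 1 TKO cell carried 117 of 119 UMIs. These differences between classes were not tested, and in these classes free RNA was not told apart from the cells' own Ccl5.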

How the results depend on the processing

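Of 94 alternative counts of members, 78 stayed within 1.5 times the reported count. The members called changed more: 44 of 67 calls were kept with clusters in place of gates and 55 of 81 with gate and cluster name the same, and 356 of 1655 single differences moved. Without a UMI minimum the class calls numbered 42 of DKO against TWT (reported 21), 54 of DKO against TKO (30), 40 of TKO against TWT (8) and 50 of IL-6 KO against TWT (8). At 3-fold the calls over all cells were 3 for DKO against TWT (5), 4 for DKO against TKO (7) and 0 for TKO and for IL-6 KO against TWT (1 each). At 1.5-fold they were 5 for TKO and 4 for IL-6 KO against TWT, and the class calls of IL-6 KO were 17. Over all cells TKO against TWT had 2 calls without a UMI minimum and 2 by the mean of each cell's CPM, and IL-6 KO against TWT had 2 with at least 200 genes as the only cell filter and 0 by the mean of each cell's CPM. Requiring gate and cluster to carry the same name, an alternative chosen after seeing the data, left 3 class calls of TKO against TWT. These were 2 higher and 1 lower, against the reported 2 and 6.

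Reversed on the log2 scale were Ccl5 of DKO against TKO in granulocyte-monocyte progenitor-like cells with at least 200 genes (0.74), Ccl6 in CD8 T cell-like cells with clusters in place of gates (-0.28) and with both the same (-0.0033), Ccl4 in other T cell-like cells (-1.83 and -1.93), and Ccl4 of IL-6 KO against TWT in immature neutrophil-like cells (0.22 and 0.22). The cause was not tested. Leaving out macrophage-like, non-classical monocyte-like and ungated cells, also chosen after seeing the data, gave 5 calls of DKO against TWT. No paired analysis was possible because there was 1 library per genotype, which also limits every difference to these libraries.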
